A study of Mus musculus with 6 samples.

Results

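The unfolded protein and amino acid stress genes are 35 genes, chosen by symbol, of 41388 in the count table, and each symbol matched 1 row. They were ordered by role before their values were described: 14 folding factors of the endoplasmic reticulum (ER), 7 genes of ER-associated degradation (ERAD), 4 stress sensors and factors, and 10 genes of the ATF4 and amino acid arm. Polyadenylated RNA came from primary cultures of fibro-adipogenic progenitors from the muscle of male wt (wild-type) mice, the stromal cells that can form fibroblasts or fat cells. Cells grown with 10% serum and fibroblast growth factor received vehicle or 500 nM prostaglandin E2 (PGE2) once a day on 2 days, with 3 libraries in each group. Whether each numbered library is a mouse or a culture of its own is not stated, so the p-values here cover only differences between libraries that may be technical repeats.

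Secreted and membrane proteins fold in the ER with the help of chaperones and disulphide isomerases. When unfolded protein accumulates there, the sensors IRE1 (Ern1), PERK (Eif2ak3) and ATF6 start the unfolded protein response. IRE1 splices the Xbp1 transcript, and XBP1 and cleaved ATF6 drive chaperone and ERAD genes. PERK phosphorylates the translation factor eIF2alpha, which favours translation of ATF4, and other kinases do the same when amino acids are short. ATF4 drives amino acid synthesis genes and feedback regulators. Cells that make collagen carry a large folding load in the ER.

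Totals were between 21006044 and 52730962 counts per library. Levels are given as CPM, a gene's count divided by its library's size after scaling by trimmed mean of M values, and 3 counts corresponded to between 0.0569 and 0.143 CPM. The 8 progenitor markers tested summed to between 4592 and 7169 CPM in vehicle and between 4760.3 and 9182 CPM in PGE2 libraries. Col1a1 alone had between 2013 and 4132 CPM in vehicle and between 1732 and 5639 CPM in PGE2 libraries. They moved both ways in the paired fit described below. Ly6a (log2 fold change 0.62) and Thy1 (0.73) rose, Cd34 (-0.59) and Lum (-0.66) fell, and 4 did not pass, Pdgfra among them. Markers of other cell types were low but mostly present. Pericyte and smooth muscle markers summed to between 68.6 and 106 CPM in vehicle and between 51.8 and 73 CPM in PGE2 libraries, and 3 of 6 tested fell in the paired fit described below (Cspg4, Notch3 and Rgs5). Endothelial markers summed to between 21.6 and 47.5 CPM and between 19.3 and 33.7 CPM, and Tek fell among 5 tested, while Pecam1 had at most 0.254 CPM. Schwann cell markers summed to between 6.91 and 8.09 CPM and between 4.24 and 5.1 CPM, with S100b and Cdh19 lower among 3 tested and Sox10 at 0 in every library. Leukocyte markers summed to between 3.88 and 4.95 CPM over both groups, with Csf1r higher among 3 tested and Ptprc at 0 throughout. The part of these cells in the results on the stress genes was not tested. Most myogenic markers were present, with a summed level over 10 genes of 246, 83.4 and 60.6 CPM in the vehicle group, in order of library number, and of 177, 29.7 and 29.2 CPM in the PGE2 group. Pax7 and Myf5 of that list had only 6 and 7 counts over all libraries together and were not tested.

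The ER stress response elements of promoters are shown first, because they are found in folding and ERAD genes of the list and in none of its ATF4 and amino acid genes. The ER stress response element (ERSE) is CCAAT, then 9 bases of any kind, then CCACG, and ATF6 is known to bind it together with the CCAAT-binding factor NF-Y. It was searched on both strands in RefSeq promoter windows of 300 bases on GRCm38.p6, the assembly also called mm10. Of 35 genes 31 had a window, and 9 held an ERSE: 7 of 12 folding genes, 2 of 6 ERAD genes, 0 of 3 sensors and factors and 0 of 10 ATF4 and amino acid genes. Among all 27025 genes with a window 37 held it, or 0.137%. The sites are written in the element's own direction, with its fixed letters in capitals.
Hspa5: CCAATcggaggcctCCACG
Calr: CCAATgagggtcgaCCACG
Hsp90b1, distal: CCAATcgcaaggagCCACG
Hsp90b1, proximal: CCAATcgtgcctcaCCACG
Pdia6: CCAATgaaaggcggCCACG
Dnajc3: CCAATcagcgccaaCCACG
Creld2: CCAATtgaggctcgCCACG
Canx: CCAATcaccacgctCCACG
Syvn1: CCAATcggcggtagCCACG
Derl3: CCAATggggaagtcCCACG

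The shorter element ERSE-II, which is ATTGG, then 1 base of any kind, then CCACG, was also searched on both strands. It was held by Dnajb11 and Herpud1 among the stress genes and by 0.0444% of all genes with a window.
Dnajb11: ATTGGcCCACG
Herpud1: ATTGGgCCACG
The capitals mark the letters that ERSE-II fixes. None of the 31 genes held TGACGTGG, which XBP1 and ATF6 are known to bind, against 0.714% of all genes. None held the ATF4 element in the form TGATGNAAT, against 1.08%. Forms with another last base, such as the TGATGAAAC of the Asns window, were not searched, so the element may be present in these windows. The cyclic AMP element TGACGTCA was held by Ppp1r15a, from base -12 to base -5 before its start, and by 2.03% of all genes. None of the counted sites overlapped another. A match describes letters in this window and says nothing of binding in these cells.

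Full windows are printed for 4 genes that the results below turn on, each from 250 bases before the start to 50 after it and with the element in capitals as it stands in the window. Hspa5 and Creld2 rose with PGE2 in the paired fit described below, Herpud1 did so with ERSE-II, and Canx held an ERSE and did not pass the test. The windows lie at chr2:34771840-34772139 (plus strand) for Hspa5, chr15:88819396-88819695 (plus strand) for Creld2, chr8:94386179-94386478 (plus strand) for Herpud1 and chr11:50325624-50325923 (minus strand) for Canx.
Hspa5: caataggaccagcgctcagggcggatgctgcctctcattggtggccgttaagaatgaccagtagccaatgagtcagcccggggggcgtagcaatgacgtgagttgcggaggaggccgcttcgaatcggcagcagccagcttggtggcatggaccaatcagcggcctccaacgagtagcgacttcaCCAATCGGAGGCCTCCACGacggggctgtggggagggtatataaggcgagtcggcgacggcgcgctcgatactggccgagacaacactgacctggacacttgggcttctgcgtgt
Creld2: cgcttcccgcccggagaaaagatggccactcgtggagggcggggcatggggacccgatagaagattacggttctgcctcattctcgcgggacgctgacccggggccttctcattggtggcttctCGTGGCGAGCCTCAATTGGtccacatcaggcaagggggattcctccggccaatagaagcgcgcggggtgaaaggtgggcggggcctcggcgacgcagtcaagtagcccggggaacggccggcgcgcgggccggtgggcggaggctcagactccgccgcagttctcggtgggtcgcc
Herpud1: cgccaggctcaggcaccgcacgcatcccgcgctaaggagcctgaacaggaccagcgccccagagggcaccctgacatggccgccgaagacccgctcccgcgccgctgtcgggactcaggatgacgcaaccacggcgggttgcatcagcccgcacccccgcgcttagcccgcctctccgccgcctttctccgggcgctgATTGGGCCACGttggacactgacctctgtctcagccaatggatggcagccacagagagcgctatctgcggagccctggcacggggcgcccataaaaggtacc
Canx: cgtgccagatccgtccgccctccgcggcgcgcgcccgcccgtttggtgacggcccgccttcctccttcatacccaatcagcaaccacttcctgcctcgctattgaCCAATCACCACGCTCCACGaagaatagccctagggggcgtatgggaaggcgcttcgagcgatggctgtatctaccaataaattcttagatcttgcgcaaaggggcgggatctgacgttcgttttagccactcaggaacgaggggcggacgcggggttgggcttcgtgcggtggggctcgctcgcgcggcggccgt

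The single comparison asks how the genes of progenitors given PGE2 differ from those given vehicle. Most folding genes stood higher with PGE2, whereas Phgdh, Psat1 and Sesn2 of the amino acid arm stood lower. Creld2, Manf and Sdf2l1, all ER-resident stress-induced proteins, were 1.74-fold, 1.71-fold and 1.64-fold higher. Phgdh and Psat1, enzymes of serine synthesis, were at 0.779 and 0.805 of their vehicle level, and Psph, the last enzyme of that pathway, was not lower, at 18.2 ± 1.44 and 19.6 ± 0.782 CPM (SD, n = 3 each). In the unblocked edgeR fit 0 of 35 genes passed an adjusted p of 0.05, in which 0.211% of 15186 tested genes were called higher and 0.132% lower. The lowest adjusted p among the 35 was 0.111, and 18 had an unadjusted p under 0.05, against 20.1% of all genes.

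Libraries with the same number deviated together, clearly for numbers 1 and 3 (correlations 0.621 and 0.422) and weakly for number 2 (0.169). PGE2 library 2 correlated more with vehicle library 3 (0.252). A second fit that takes the number as a block, called the paired fit, stands next to the unblocked one. In it 19 of the 35 rose and 3 fell, against 6.91% and 7.51% of all tested genes (edgeR, Benjamini-Hochberg). Derl3 entered the test only through its PGE2 libraries, and without it 18 of 34 rose and 3 fell. DESeq2 without the block had 7 higher and 0 lower, against 2.86% and 3.27% of all genes. Pairing left the fold changes nearly where they were and lowered their median error. Over all 35 genes the median standard error was 0.145 on the log2 scale in the unblocked fit and 0.086 in the paired fit. Over the 22 genes called in the paired fit, a choice that favours small errors there, it was 0.151 and 0.079. No label states that the numbers pair the libraries, and every paired call rests on that reading of the data. Fewer cells of a type and less RNA per cell cannot be told apart in such bulk samples.

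**Figure D1:**
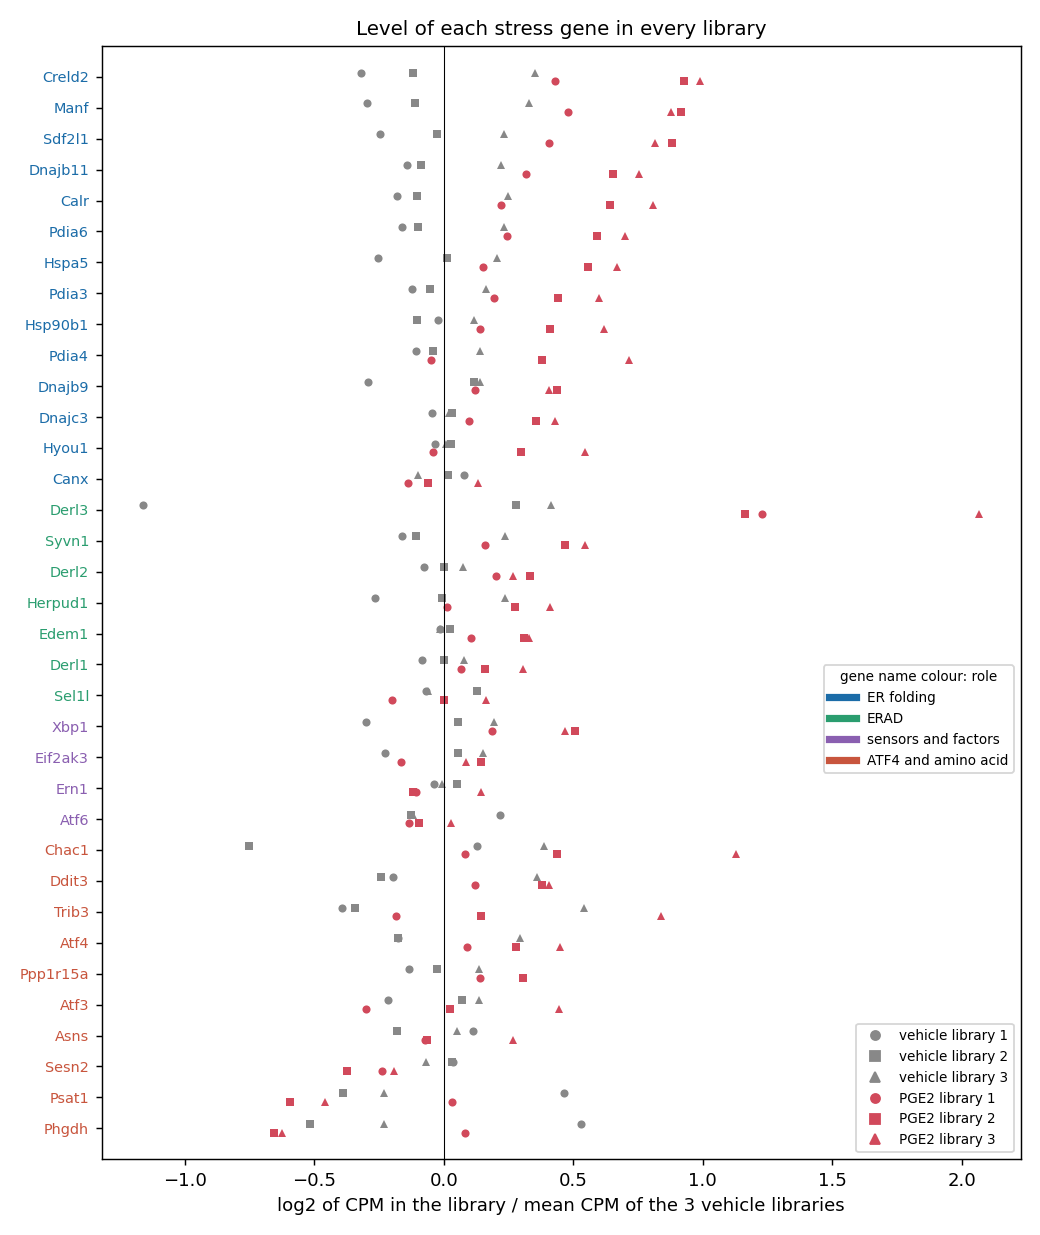
Level of each of the 35 genes in each library, as log2 of its CPM over the mean of the 3 vehicle libraries. Grey symbols are vehicle and red symbols PGE2 libraries, the symbol shape gives the library number, and gene names are coloured by role. For Creld2, Manf and Sdf2l1 the 3 PGE2 libraries lie above all vehicle libraries, and for Sesn2 below them.

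Of 14 folding genes, 12 rose in the paired fit and 0 fell, against 6.91% and 7.51% of all tested genes. Their median log2 fold change was 0.44, or 0.45 in the unblocked fit, where that of all tested genes was -0.001. PGE2 libraries lay above all vehicle libraries for 8 of the 14, as for 13.7% of all tested genes. Each of 12 was higher in all 3 numbered pairs, as were 26.6% of all genes.

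Creld2, a chaperone-associated disulphide protein secreted under ER stress, had 66.6, 76.5 and 106 CPM in vehicle and 112, 158 and 165 CPM in PGE2 libraries, each time in the order of the library numbers. The groups did not overlap, but PGE2 library 1 lay close to vehicle library 3. Its log2 fold change was 0.80 ± 0.214 (SE; edgeR adjusted p = 0.137) in the unblocked fit and 0.81 ± 0.086 (edgeR adjusted p = 0.00034) in the paired fit. Manf, a secreted ER stress protein that protects neurons, had 204, 232 and 315 CPM in vehicle and 349, 473 and 459.7 CPM in PGE2 libraries. Every PGE2 library was again above every vehicle library, with a paired log2 fold change of 0.78 ± 0.095 (edgeR adjusted p = 0.000721). The annotated Manf region overlaps 42681 bases of Dcaf1 on the opposite strand and 6511 bases of Rbm15b on its own, and its level is uncertain because the strand setting of the counting is unknown here.

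Sdf2l1, which partners the J proteins that serve BiP, had 47.1, 54.9 and 65.6 CPM in vehicle and 74, 103 and 98.3 CPM in PGE2 libraries. Its groups were apart, and its paired log2 fold change was 0.71 ± 0.082 (edgeR adjusted p = 0.000519). Dnajb11, a J protein that hands substrates to BiP, had 165, 171 and 212 CPM in vehicle and 227, 286 and 307 CPM in PGE2 libraries. Its groups were apart as well, at a paired log2 fold change of 0.58 ± 0.078 (edgeR adjusted p = 0.00128). Without PGE2 library 1, Sdf2l1 alone of the 35 passed the unblocked fit, at 0.85 ± 0.135 (edgeR adjusted p = 0.0474).

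Hspa5 encodes BiP, the main Hsp70 chaperone of the ER and the classic marker of the response. It had 1596, 1921 and 2192 CPM in vehicle and 2112, 2800.1 and 3025 CPM in PGE2 libraries. PGE2 library 1 lay below vehicle library 3, so the groups overlapped, yet the PGE2 library was the higher in each pair, by 0.40, 0.54 and 0.46 on the log2 scale. The log2 fold change was 0.48 ± 0.174 (edgeR adjusted p = 0.195) unblocked and 0.47 ± 0.092 (edgeR adjusted p = 0.00909) paired. Calr, the calcium-binding lectin chaperone calreticulin, had 1781, 1879.5 and 2397 CPM in vehicle and 2353, 3152 and 3531 CPM in PGE2 libraries. Its groups overlapped in the same way, through PGE2 library 1, and its paired log2 fold change was 0.57 ± 0.101 (edgeR adjusted p = 0.00564).

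Canx, calnexin, is the membrane-bound counterpart of calreticulin, and it did not share that pattern. It had 876, 838 and 774 CPM in vehicle and 753, 794 and 909 CPM in PGE2 libraries, a paired log2 fold change of -0.02 ± 0.099 (edgeR adjusted p = 0.907). It was higher in 1 of 3 pairs, and of the 8 genes with an ERSE other than Derl3 it was the one that did not pass. Per kilobase of its longest annotated transcript, Calr went from 925 to 1379 CPM and Canx from 194 to 191 CPM. The difference between both genes' responses was not tested.

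Among the 3 disulphide isomerases of the list, Pdia6 had the largest paired log2 fold change, at 0.52, followed by Pdia3 at 0.42 and Pdia4 at 0.35, and all 3 rose in the paired fit. Pdia3 had 1486, 1559 and 1815 CPM in vehicle and 1854, 2200.4 and 2457 CPM in PGE2 libraries, with no overlap. Pdia6 had 917 to 1207 CPM in vehicle and 1217 to 1669.7 CPM in PGE2 libraries, so its groups were apart by a small gap. Pdia4 had 439.7 CPM in PGE2 library 1, inside the vehicle range of 422 to 501 CPM. Hsp90b1, the ER Hsp90 known as GRP94, rose by 0.39 and its groups did not overlap, at 2043 to 2385 CPM in vehicle and 2420.3 to 3374 CPM in PGE2 libraries. It shares 4598 bases with a pseudogene on the opposite strand. Dnajb11 likewise shares 4652 bases with an antisense transcript.

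The J protein Dnajc3, which also restrains PERK, had 221, 233 and 231 CPM in vehicle and 244, 292 and 307 CPM in PGE2 libraries. Its groups were apart, and it rose by 0.29 ± 0.078 in the paired fit (edgeR adjusted p = 0.0331). Dnajb9, a J protein that aids ERAD and represses IRE1, had 45.4, 60.2 and 61.2 CPM in vehicle and 60.5, 75.2 and 73.6 CPM in PGE2 libraries. Its groups overlapped, and it rose by 0.33 ± 0.073 in the paired fit (edgeR adjusted p = 0.0154).

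Hyou1, an Hsp110 relative that exchanges nucleotide on BiP, did not pass. It had 318, 332 and 328 CPM in vehicle and 317, 401 and 476 CPM in PGE2 libraries, with a paired log2 fold change of 0.27 ± 0.1 (edgeR adjusted p = 0.0981). PGE2 library 1 was level with vehicle, and the other 2 PGE2 libraries were above it.

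ERAD genes, which pull misfolded proteins out of the ER for destruction, were counted next. Of 7, 5 were called higher in the paired fit and 0 lower, or 4 of 6 higher without Derl3. Of all tested genes 6.91% were called higher and 7.51% lower. The ERAD genes had a median log2 fold change of 0.25 in both fits. With the length offset described below the paired medians were 0.33 for ERAD, or 0.25 without Derl3, and 0.42 for folding genes, and the difference between the roles was not tested. Syvn1, the ubiquitin ligase HRD1, had 68.6, 71.1 and 90.3 CPM in vehicle and 85.7, 106 and 112 CPM in PGE2 libraries, and rose by 0.40 ± 0.078 (edgeR adjusted p = 0.00879). PGE2 library 1 was below vehicle library 3, so the groups overlapped. Sel1l, the adaptor that holds that ligase complex together, was at 216 ± 17.1 and 215 ± 26.9 CPM (SD, n = 3 each) and had a paired log2 fold change of -0.01 ± 0.085.

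Derl2, a channel-associated rhomboid pseudoprotease, had 61, 64.4 and 67.8 CPM in vehicle and 74, 81 and 77.4 CPM in PGE2 libraries. Its groups were apart, and it rose by 0.26 ± 0.072 in the paired fit (edgeR adjusted p = 0.0352). Its relative Derl1 stood at 0.18 ± 0.067 and did not pass (edgeR adjusted p = 0.103). Derl3 was near the limit of detection, with 3, 4 and 9 counts in vehicle and 17, 18 and 24 counts in PGE2 libraries 1 to 3. It passed the filter on low counts only through the PGE2 group, so it had to stand higher there, and no test of it is given. Its counts lay apart between the groups.

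Edem1, a mannosidase-like lectin that picks ERAD substrates, had 119, 122 and 119 CPM in vehicle and 129, 149 and 151 CPM in PGE2 libraries. Its groups were apart, and it rose by 0.25 ± 0.073 in the paired fit (edgeR adjusted p = 0.0474). Herpud1, a membrane scaffold of the pathway, had 52.3, 62.5 and 74 CPM in vehicle and 63.4, 76.1 and 83.6 CPM in PGE2 libraries. Its groups overlapped, and it rose by 0.25 ± 0.071 in the paired fit (edgeR adjusted p = 0.0446).

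The sensors themselves did not differ detectably. Ern1 was at 32.9 ± 1.04 and 32.4 ± 3.42 CPM, Eif2ak3 at 51.8 ± 6.88 and 52.8 ± 5.82 CPM and Atf6 at 49.6 ± 6.94 and 47.4 ± 2.83 CPM in vehicle and PGE2 (SD, n = 3 each). Their paired log2 fold changes were -0.03 ± 0.086, 0.03 ± 0.075 and -0.06 ± 0.098. Xbp1, whose transcript is both spliced by IRE1 and induced in the response, had 165, 211 and 232 CPM in vehicle and 231, 288 and 281 CPM in PGE2 libraries. PGE2 library 1 lay just below vehicle library 3, and it rose by 0.40 ± 0.075 in the paired fit (edgeR adjusted p = 0.00698). Counts per gene do not separate spliced from unspliced Xbp1.

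**Figure D2:**
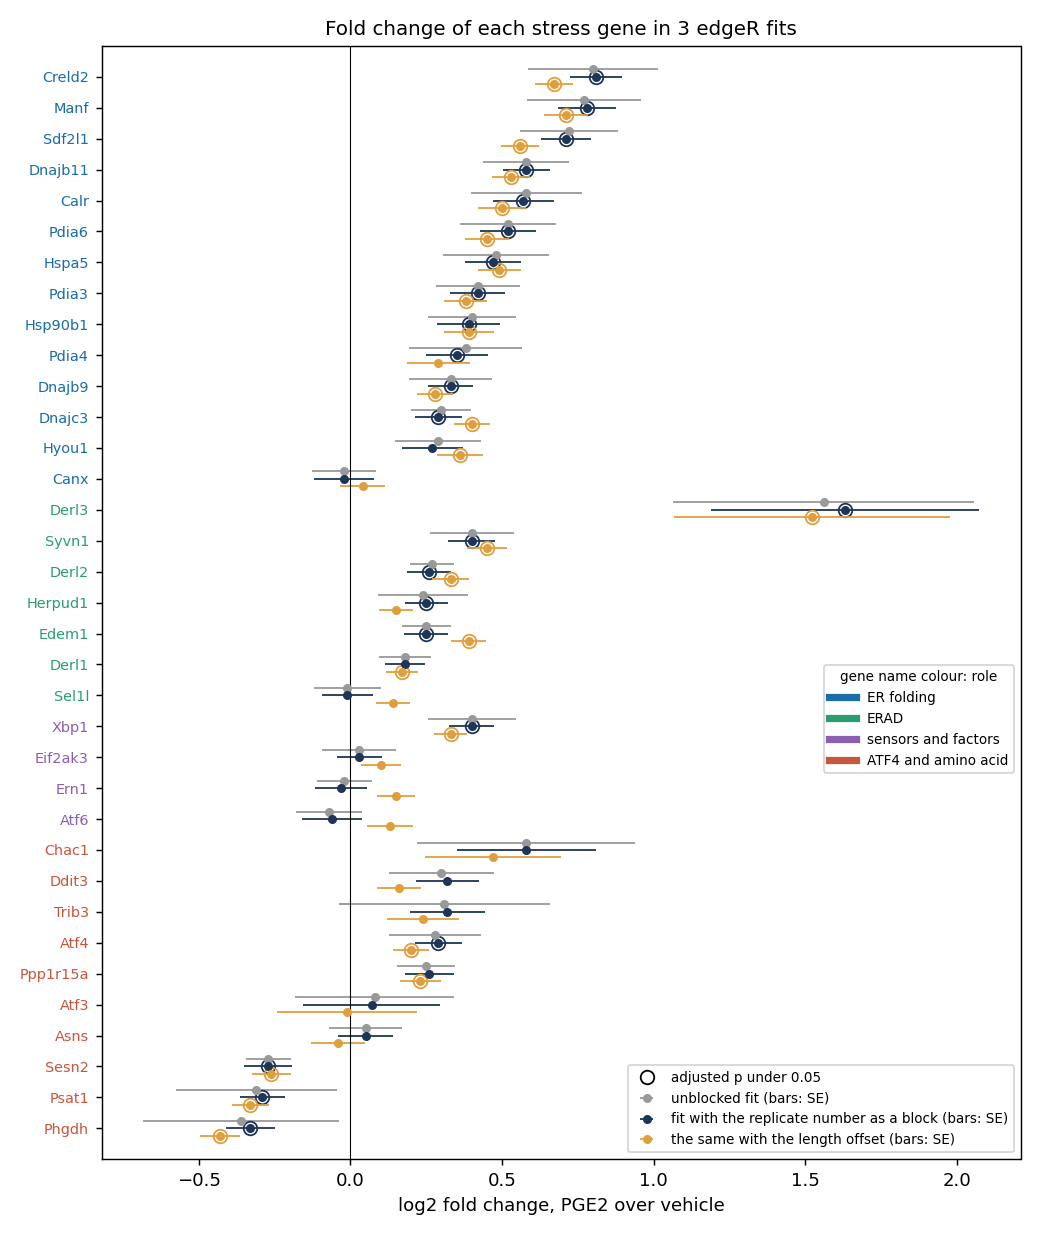
Log2 fold change of each gene, PGE2 over vehicle, with its standard error, in the unblocked fit (grey), the paired fit (dark blue) and the paired fit with the length offset (orange). Rings mark an adjusted p under 0.05. Rings appear on 22 genes in the paired fit, Derl3 with its few counts among them, and on 0 in the unblocked fit, at nearly the same fold changes, while Psat1, Phgdh and Sesn2 are the genes with a ring below 0.

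The ATF4 and amino acid arm held calls in both directions. Of its 10 genes 1 rose in the paired fit, near the 6.91% of all tested genes. In the same fit 3 fell, against 7.51% of all tested genes, and 6 did not pass. The arm's median log2 fold change was 0.17 in both fits. That of the 21 folding and ERAD genes was 0.40 unblocked and 0.39 paired, or 0.37 paired without Derl3. No test was made over either group.

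Phgdh, the first enzyme of serine synthesis, had 137, 66.4 and 80.9 CPM in vehicle and 100.3, 60.2 and 61.5 CPM in PGE2 libraries. Library 1 was the highest of each group, so the groups overlapped, and the PGE2 library was lower in every pair. Its log2 fold change was -0.36 ± 0.322 (edgeR adjusted p = 0.57) unblocked and -0.33 ± 0.080 (edgeR adjusted p = 0.022) paired. Psat1, the next enzyme of that pathway, had 186, 103 and 115 CPM in vehicle and 138, 89.5 and 98.1 CPM in PGE2 libraries. It showed the same order of libraries, with a paired log2 fold change of -0.29 ± 0.074 (edgeR adjusted p = 0.0274).

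Sesn2, sestrin 2, which restrains the growth kinase complex mTORC1 when leucine is low, had 71.3, 71.1 and 66.3 CPM in vehicle and 58.9, 53.7 and 60.9 CPM in PGE2 libraries. Its annotated region shares 6089 bases with another transcript on the same strand. It was the 1 gene of the 35 whose PGE2 libraries all lay below vehicle, as for 12.2% of all tested genes, and it fell by 0.27 ± 0.079 in the paired fit (edgeR adjusted p = 0.046). Being lower in all 3 pairs was shared by Phgdh, Psat1 and Sesn2, and by 25.5% of all genes. The other way, 4 of the 10 genes of the arm were higher in all 3 pairs, as were 26.6% of all genes. Asns, asparagine synthetase and a classic ATF4 target, did not follow either way, at 46.5 ± 4.87 and 48.2 ± 6.78 CPM (SD, n = 3 each) and a paired log2 fold change of 0.05 ± 0.090.

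The libraries numbered 1 set the size of the difference for Phgdh and Psat1 in the unblocked fit. Without vehicle library 1 the log2 fold change was -0.001 for Phgdh and -0.014 for Psat1, and without PGE2 library 1 it was -0.64 and -0.52. That of Sesn2 was -0.256 and -0.281 in those fits. Without replicate number 1 the paired fit no longer called any of these 3 genes. Phgdh was then at -0.27 ± 0.116 (edgeR adjusted p = 0.153), Psat1 at -0.22 ± 0.111 (edgeR adjusted p = 0.255) and Sesn2 at -0.26 ± 0.117 (edgeR adjusted p = 0.169). The libraries numbered 1 also held the most myogenic RNA in both groups, at 246 and 177 CPM. Of the 8 myogenic genes tested 0 rose and 5 fell in the paired fit, and the part of these cells in the change of Phgdh and Psat1 was not tested. Without that pair 15 of the 35 stress genes were called higher, among them Hspa5 at 0.50 ± 0.147 (edgeR adjusted p = 0.0202).

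Atf4 itself, the transcription factor of the arm, rose in the paired fit by 0.29 ± 0.077 (edgeR adjusted p = 0.0332). It had 138, 138 and 191 CPM in vehicle and 166, 189 and 213 CPM in PGE2 libraries, so its groups overlapped, and ATF4 is regulated mainly by translation, which these counts do not measure. Ppp1r15a, the GADD34 subunit that reverses eIF2alpha phosphorylation, had 21.3, 23 and 25.7 CPM in vehicle and 25.8, 28.9 and 28.9 CPM in PGE2 libraries. Those groups were apart by a hair, and the paired log2 fold change of 0.26 ± 0.081 did not pass (edgeR adjusted p = 0.0591).

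Ddit3, the death-linked factor CHOP, was at 0.32 ± 0.104 in the paired fit and did not pass (edgeR adjusted p = 0.0642). It had 29.4, 28.5 and 43.2 CPM in vehicle and 36.6, 43.8 and 44.6 CPM in PGE2 libraries, so vehicle library 3 stood with the PGE2 group. Its annotated region is overlapped by a second entry of the same name on the same strand. The pseudokinase gene Trib3 and the glutathione-degrading Chac1 were low, at 5.71 ± 2.24 and 1.75 ± 0.639 CPM in vehicle and 7.16 ± 2.68 and 2.68 ± 1.03 CPM with PGE2 (SD, n = 3 each). Atf3, a stress-induced repressor, was at 1.22 ± 0.155 and 1.3 ± 0.338 CPM. None of these passed in either fit.

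**Figure D3:**
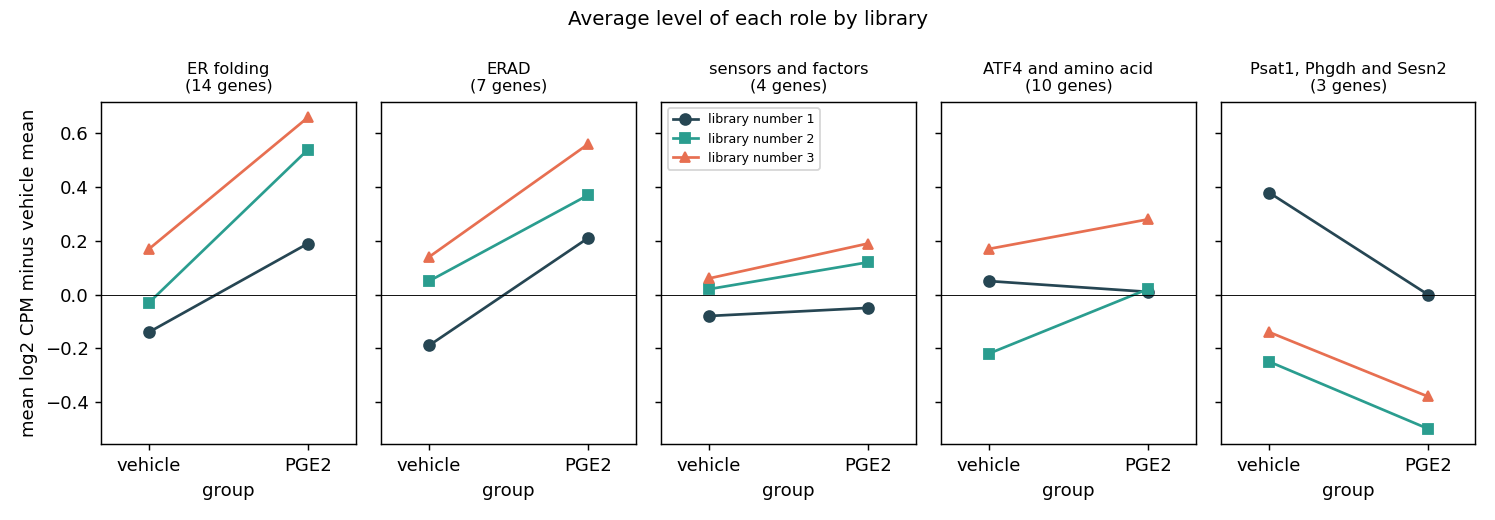
Mean over the genes of each role of log2 CPM minus the gene's vehicle mean, by group, with a line for each library number. The last panel shows the 3 genes that fell, chosen after their values were seen. The ERAD panel includes Derl3. Folding and ERAD lines all rise from vehicle to PGE2, library 1 starts and ends lowest there, and it starts and ends highest for Psat1, Phgdh and Sesn2.

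The library averages show how the roles stood in each library. Folding genes averaged -0.14, -0.03 and 0.17 on the log2 scale in vehicle libraries 1 to 3, relative to the vehicle mean, and 0.19, 0.54 and 0.66 in PGE2 libraries 1 to 3. The ATF4 arm averaged 0.05, -0.22 and 0.17 in vehicle and 0.01, 0.02 and 0.28 in PGE2 libraries, so its groups overlapped. Library 1 was the lowest of its group for 18 of the 21 folding and ERAD genes in vehicle and for 20 of 21 in PGE2. Leaving out replicate number 2 lowered the paired calls from 19 to 6 higher and from 3 to 1 lower. Those remaining were Dnajb11, Sdf2l1, Manf, Creld2 and Xbp1 above and Phgdh below. The 6 also count Derl3, of which no test is given. That fit called 3.19% of all genes higher and 4.38% lower, and fold changes stayed nearly as large, at 0.43 for Hspa5, 0.48 for Calr and 0.44 for Pdia6, with a median over folding and ERAD genes of 0.331 against 0.392.

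Longer transcripts were lower under PGE2 across the whole table, and the stress genes were no exception. The rank correlation of unblocked log2 fold change with the longest annotated transcript was -0.434 over the 35 genes and -0.696 over the 21 folding and ERAD genes, against -0.408 over 15098 tested genes. Both values for stress genes include Derl3, a short transcript of 1321 bases that had to stand higher, and none was computed without it. The correlations are descriptions over genes that share the same libraries. Creld2 and Sdf2l1 have short transcripts, of 1366 and 1108 bases, while the 6300 bases of Sel1l and the 7246 bases of Atf6 are long.

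A length offset was then added to the paired fit. It called 20 of the 35 higher and 3 lower, against 9.55% and 7.35% of all genes. Without Derl3 it called 19 of 34 higher and 3 lower. Of the calls with Derl3, 17 of the higher and all 3 of the lower were shared with the paired fit. Creld2 went from 0.81 to 0.67 and Sdf2l1 from 0.71 to 0.56 on the log2 scale, whereas Edem1 went from 0.25 to 0.39 and Dnajc3 from 0.29 to 0.40. Hyou1, Derl1 and Ppp1r15a passed in place of Pdia4 and Herpud1. The median log2 fold change went from 0.44 to 0.42 for folding genes, from 0.25 to 0.33 for ERAD genes, from 0.001 to 0.138 for sensors and factors, and from 0.165 to 0.074 for the ATF4 arm. With the offset but no block 0 of 35 passed, against 0.0593% of all genes higher and 0.0395% lower.

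**Figure D4:**
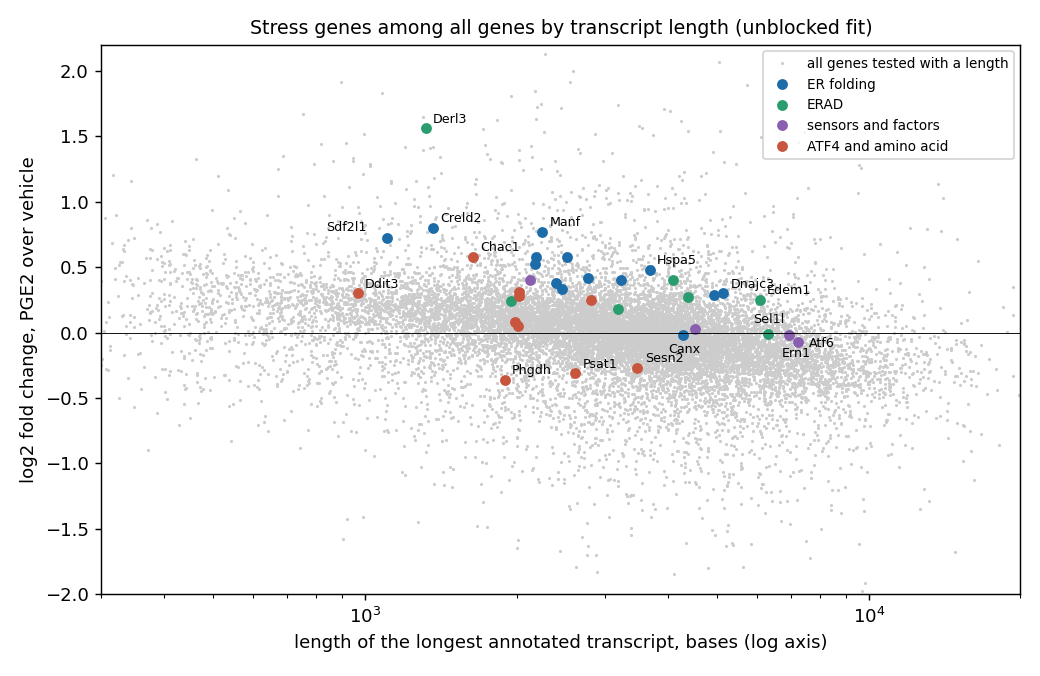
Unblocked log2 fold change against the length of the longest annotated transcript on a log axis, with all tested genes in grey and the 35 stress genes coloured by role; of 15098 genes, 14933 fall within the drawn range. The grey cloud slopes down with length, Creld2 and Sdf2l1 lie high at short lengths, and Sel1l, Ern1 and Atf6 lie near 0 at long ones. Derl3 also lies high at a short length, but it passed the filter on low counts only through the PGE2 group.

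Other genes of these pathways were counted from lists chosen for their function. Of 45 further ER folding, translocation and ERAD genes tested, 14 rose and 1 fell in the paired fit, 0 passed unblocked, and the median paired log2 fold change was 0.18. Those shares can be read against 6.91% and 7.51% of all genes. Those with the smallest paired p were the selenoprotein gene listed as Vimp (0.49), the proline isomerase Fkbp11 (0.70), the translocon subunit Sec61b (0.52) and Fkbp7 (0.37). The gene that fell was Crebrf (-0.48), a regulator of the CREB3 family. P4hb, the beta subunit of prolyl hydroxylase and an isomerase that collagen needs, was at 1833 ± 192 and 2287 ± 396 CPM (SD, n = 3 each) and just missed the paired threshold (log2 fold change 0.31, edgeR adjusted p = 0.0511).

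Further ATF4 targets also held calls in both directions. Of 37 tested 5 rose and 2 fell in the paired fit, against 6.91% and 7.51% of all genes, so the count that fell is near the share of all genes. None of them passed unblocked, and the median paired log2 fold change was 0.09. The smallest p belonged to Cebpb (0.60), a transcription factor of inflammation and early adipogenesis, Ddit4 (0.57), an inhibitor of mTORC1, Cth (0.93), which makes cysteine, and Klhl24 (-0.48). Of 21 transfer RNA synthetases 0 rose and 1 fell in the paired fit, the leucine enzyme Lars (-0.27), with a median of -0.03. A single fall in this list is also near the 7.51% of all genes. Among 13 eIF2alpha kinases and partners 0 passed in either fit, and 4 of the 13, 2 higher and 2 lower, had an unadjusted p under 0.05 in the unblocked fit, against 20.1% of all genes.

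Heat shock genes of the cytosol answer to another factor, HSF1, and their list here also holds the mitochondrial chaperonin genes Hspd1 and Hspe1. Of 23 tested 1 rose and 1 fell in the paired fit, near the 6.91% and 7.51% of all genes, and 4 rose and 1 fell with the length offset, against 9.55% and 7.35%. In the paired fit they had a median log2 fold change of 0.09. The small heat shock protein Hspb1 rose by 0.46, and Hsp90ab1, a cytosolic Hsp90, fell by 0.31. The heat shock and ER lists were not tested against each other.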

How the data were processed

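The authors deposited whole-number counts per gene, 1 column per library, with Ensembl identifiers and symbols. Per the submitters' processing notes the genome build was mm10. The aligner, the counting tool, its strand setting and its gene models were not given in the sources used. All 37 mitochondrial genes were listed at 0. No library repeated another within sampling noise (chi-square per degree of freedom at least 19.3).

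The test was a robust quasi-likelihood fit (R version 4.3.3, edgeR version 4.0.16). filterByExpr left 15186 genes, including all 35 members, with TMM scaling and Benjamini-Hochberg adjustment over all of them, and 0.05 was the threshold. Every fold change divides PGE2 by vehicle, and ± after a fold change is a standard error. Deviations of log2 CPM (prior count 2) from group means correlated at 0.621, 0.169 and 0.422 for replicate numbers 1 to 3, each above the rule of 0.1. Other matchings reached 0.252 (vehicle 3 with PGE2 2). The numbers were therefore treated as pairs. The length offset was a lowess trend (span 0.3) per library on the longest GENCODE transcript, known for 99.4% of tested genes. Alternatives were DESeq2 version 1.42.0, limma-voom (limma version 3.58.1), other scalings and filters, and libraries or pairs left out. Of 33 promoter windows of members, 30 matched an annotated transcript of the gene in their transcribed end.

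Members and lists were chosen with earlier results of these data known. All 35 members are named. Of each other list up to 4 genes with the smallest p are named, and Crebrf, P4hb, Psph and the other genes with promoter elements were named after their values were seen.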

Additional observations from a re-analysis of the deposited data

How the results depend on the processing

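The unblocked count of 0 higher and 0 lower among 35 held with library totals alone, DESeq2 size factors in edgeR, upper quartile scaling, no filter, a mean of at least 1 CPM, limma-voom, the length offset and an adjusted p under 0.1. With a single library left out it was between 0 and 1 higher and was 0 lower. It was 7 higher with DESeq2, 19 higher and 3 lower with the replicate block, and 20 and 3 with the block and the length offset. Derl3, of which no test is given, is counted in both results with the block, and in that without replicate 2 below. The block with 1 pair left out gave between 6 and 20 higher and between 0 and 3 lower: 15 and 0 without replicate 1 (4.44% and 4.67% of all genes), 6 and 1 without replicate 2 (3.19% and 4.38%) and 20 and 3 without replicate 3 (15.6% and 17.7%). The median log2 fold change of the folding and ERAD genes ranged from 0.29 to 0.518 with a library left out. That of the ATF4 arm ranged from -0.046, without PGE2 library 3, to 0.276. The causes were not tested.

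Signs turned for 8 genes, none of them called in the unblocked or paired fit: 7 near 0, and Trib3, at 0.31 unblocked, which turned without PGE2 library 3. With the length offset, unblocked and blocked, Canx was at 0.038 and 0.036, Sel1l at 0.146 and 0.143, Atf6 at 0.122 and 0.127, Ern1 at 0.148 and 0.149 and Asns at -0.036 and -0.039. Atf3 was at -0.008 with the offset and the block together, and Eif2ak3 at -0.016 with library totals alone. With a library left out the ranges were -0.099 to 0.038 for Canx, -0.096 to 0.083 for Sel1l, -0.127 to 0.05 for Atf6, -0.113 to 0.021 for Ern1, -0.084 to 0.116 for Eif2ak3, -0.124 to 0.244 for Atf3, -0.021 to 0.688 for Trib3 and -0.072 to 0.107 for Asns. With the block and a pair left out they were -0.157 to 0.077 for Canx (0.008 without replicate 2), -0.136 to 0.048 for Sel1l (0.047 without replicate 2), -0.172 to 0.09 for Atf6, -0.126 to 0.041 for Ern1, -0.07 to 0.151 for Atf3 and -0.05 to 0.166 for Asns. Depth limited Derl3, with at most 24 counts, and Atf3 and Chac1, near 1 to 4 CPM.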

Other observations

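Genes outside the stress list whose promoter window held the same elements were also measured. Of 9 tested genes with an ERSE that are not among the 35, 1 rose and 1 fell in the paired edgeR fit. Their median log2 fold change was -0.019. The 9 stress genes with an ERSE had a median of 0.471, and 8 were called higher. Without Derl3 the median was 0.44, and 7 of 8 were called higher. None of the 9 genes outside the stress list passed the unblocked fit, and with the length offset in the paired fit 2 rose and 0 fell. The gene that rose was the adenylyl cyclase Adcy3 (0.379 ± 0.078, SE), and Acacb, an acetyl-CoA carboxylase of fat oxidation control, fell (-0.689 ± 0.187). With the length offset Acacb was no longer called (-0.457 ± 0.176, edgeR adjusted p = 0.093), and Xlr3b was called higher (0.478 ± 0.137, edgeR adjusted p = 0.0284). Alg12, a mannosyltransferase of N-glycan assembly in the ER, was at 0.278 ± 0.085 and did not pass (edgeR adjusted p = 0.0526). Of 6 others with ERSE-II, 2 rose: Krtcap2, an oligosaccharyltransferase subunit (0.393 ± 0.073), and Lgalsl (0.359 ± 0.073). These genes were found by letters alone after the stress genes had been examined. No test was made over either set.

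Within the folding and ERAD genes that had a window, 10 of 11 with ERSE or ERSE-II and 6 of 7 without either were called higher in the paired fit, with median log2 fold changes of 0.47 and 0.33. Without Derl3 the first count was 9 of 10 and its median 0.44. Manf, Hyou1 and Derl1 had no window, and the difference was not tested.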
